A study of Mus musculus with 3 samples.

Results

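Twist1 binding was examined at 42 genes of the extracellular matrix, the collagens together with the proteoglycans, elastic fibre proteins and matrix enzymes known from developing heart valves. The genes were listed by name, with earlier results of these data known. A peak was assigned to a gene when the deposited list named that gene on either side, 0 to 50 Kb away. These 42 were set against 14619 genes named in the 3 lists. They accounted for 24 of 10965 peaks in ECCs, 87 of 48965 in limb buds and 18 of 7538 in PNST cells.

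ChIP-seq was performed with a Twist1 antibody (Sigma, T6451) in 3 untreated samples, all labelled as FVB/N mouse. The first was endocardial cushion tissue (ECCs) of the atrioventricular canal at embryonic day (E)12.5, the second was forelimb buds at E10.5, and the third was a cultured peripheral nerve sheath tumor (PNST) line. Tissue of several wild-type litters, or cells of more than 1 plate of the line, was pooled into 1 sample per tissue. No comparison between tissues could therefore be tested against replicate error, and the intervals below cover counting error only.

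Collagens are triple-helical proteins that form fibrils, networks or fibril-associated filaments. Proteoglycans and hyaluronan fill and hydrate the endocardial cushions, elastic fibres let the mature leaflets recoil, and proteases of the Adamts and Mmp families cut these matrices as the cushions become valves. Twist1, a basic helix-loop-helix factor, recognizes the E-box hexamer CANNTG and is known for keeping cushion and limb cells mesenchymal. No expression values were used here, so the tissue labels could not be checked against marker genes.

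Depth differed between the samples. A tag is a mapped read, and the duplicate filter kept no more than 1 per position. By the headers the ECC list then rested on 3149934 tags, the limb bud list on 14893391 and the PNST list on 11823220. The smallest peak in each list had 5, 8 and 7 tags, which is 1.59, 0.537 and 0.592 scaled tags, that is, tags per 1000000 filtered tags. A gene with no peak in ECCs may thus have had binding at a level that the limb bud list could still hold.

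The members shared 13 regions between tissues, and the DNA of most of them is shown here because the comparisons below turn on it. Sequences are the upper strand of mm9, 5′ to 3′, with each E-box (CANNTG) in capitals. The only member region with a peak in all 3 tissues and no match to mitochondrial DNA lay upstream of Chst11, which encodes a chondroitin 4-sulfotransferase. The limb bud peak there was chr10:82417940-82418191.
Chst11 upstream region, limb bud peak: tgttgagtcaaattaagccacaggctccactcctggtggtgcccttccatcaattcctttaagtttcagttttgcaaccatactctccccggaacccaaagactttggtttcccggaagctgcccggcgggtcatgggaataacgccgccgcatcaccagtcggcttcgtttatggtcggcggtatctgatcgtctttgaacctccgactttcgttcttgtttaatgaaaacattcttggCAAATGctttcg

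The other region with peaks in all 3 tissues flanked Col19a1. It is shown for 100 bp on each side of the PNST summit, at chr1:24622653-24622853, and holds 3 E-boxes.
Col19a1 flank: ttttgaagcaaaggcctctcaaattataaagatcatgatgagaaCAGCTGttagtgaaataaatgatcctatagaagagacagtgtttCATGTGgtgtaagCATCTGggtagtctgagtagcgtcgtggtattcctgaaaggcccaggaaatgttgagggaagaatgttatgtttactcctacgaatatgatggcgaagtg

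Next come the parts common to the ECC and limb bud peaks. At Adamts1 and Adamts5, which encode secreted proteases that cut versican and aggrecan, the common parts held 4 and 3 E-boxes. They lay at chr16:85784136-85784288 and chr16:85809946-85810084.
Adamts1 side: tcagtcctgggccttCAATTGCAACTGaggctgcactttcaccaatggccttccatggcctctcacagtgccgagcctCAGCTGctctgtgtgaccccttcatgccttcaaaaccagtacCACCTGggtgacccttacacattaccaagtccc
Between Adamts1 and Adamts5: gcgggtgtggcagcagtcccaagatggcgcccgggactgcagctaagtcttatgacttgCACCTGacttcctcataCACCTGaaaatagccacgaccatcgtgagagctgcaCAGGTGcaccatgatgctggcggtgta

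A further 3 common parts of ECC and limb bud peaks, in introns of Col19a1, Col23a1 and Col12a1, were simple repeats without an E-box. They are chr1:24338093-24338195, chr11:51141397-51141502 and chr9:79466376-79466445.
Col19a1 intron 19: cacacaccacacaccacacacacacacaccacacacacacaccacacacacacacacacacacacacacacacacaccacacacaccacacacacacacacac
Col23a1 intron 2: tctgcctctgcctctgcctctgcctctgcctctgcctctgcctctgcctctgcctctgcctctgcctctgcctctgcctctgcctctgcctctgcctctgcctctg
Col12a1 intron 52: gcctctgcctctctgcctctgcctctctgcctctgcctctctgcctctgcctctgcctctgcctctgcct

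At Eln, the gene of elastin, the common parts of ECC and limb bud peaks were chr5:135194492-135194556 in intron 18 and chr5:135272648-135272744 upstream of the gene. They are shown because the upstream part repeats letters of the intronic one.
Eln intron 18: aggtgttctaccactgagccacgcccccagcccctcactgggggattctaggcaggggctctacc
Eln upstream flank: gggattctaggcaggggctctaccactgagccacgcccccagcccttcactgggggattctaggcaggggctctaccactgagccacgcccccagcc

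Finally, limb buds and PNST cells shared 3 regions, at chr10:82537207-82537344 in Chst11, chr4:18016426-18016557 in Mmp16 and chr5:135170104-135170268 beyond the 3′ end of Eln. The Eln part carries CATATG, an E-box associated with Twist1.
Chst11 intron 1: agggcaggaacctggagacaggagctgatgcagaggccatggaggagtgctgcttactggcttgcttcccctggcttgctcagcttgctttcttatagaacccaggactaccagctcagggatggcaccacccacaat
Mmp16 intron 6: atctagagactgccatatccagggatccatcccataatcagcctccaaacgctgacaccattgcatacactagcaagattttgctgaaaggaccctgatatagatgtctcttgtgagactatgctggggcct
Eln 3′ flank: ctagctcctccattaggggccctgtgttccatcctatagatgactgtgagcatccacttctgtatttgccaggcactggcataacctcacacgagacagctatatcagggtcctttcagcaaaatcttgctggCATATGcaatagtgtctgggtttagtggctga

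Of the 42 genes, 15 had a peak within 50 Kb in ECCs, which is 35.7% (95% Wilson interval 23.0 to 50.8). The background, the share of all 14619 named genes with such a peak, was 36.3%. In limb buds the count was 32, or 76.2% (61.5 to 86.5), against a background of 87.5%. In PNST cells it was 14, or 33.3% (21.0 to 48.4), against 23.6%. The background holds named genes only, whereas 3 of the members were named in no list at any distance. On that same basis, among the 39 named members, the shares were 38.5% (24.9 to 54.1), 82.1% (67.3 to 91.0) and 35.9% (22.7 to 51.6) in the same order. The first 2 intervals held the background, and the third, in PNST cells, held it near its lower bound. The members were chosen with earlier results of these data known, which the intervals do not cover. The order of the tissues went with the length of the lists. With the lists held to equal length by p-value, 15 members had an ECC peak, 8 a limb bud peak and 14 a PNST peak. At a fold enrichment of at least 20 the numbers were 14, 7 and 1. Median fold enrichment over all peaks within 50 Kb of a gene was 27.61, 14.53 and 15.17 in the same order. Shares of all named genes at these settings were not computed, so these counts have no background. A peak in all 3 tissues was listed for 8 members, and for 1538 of the 14619 named genes.

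**Figure D1:**
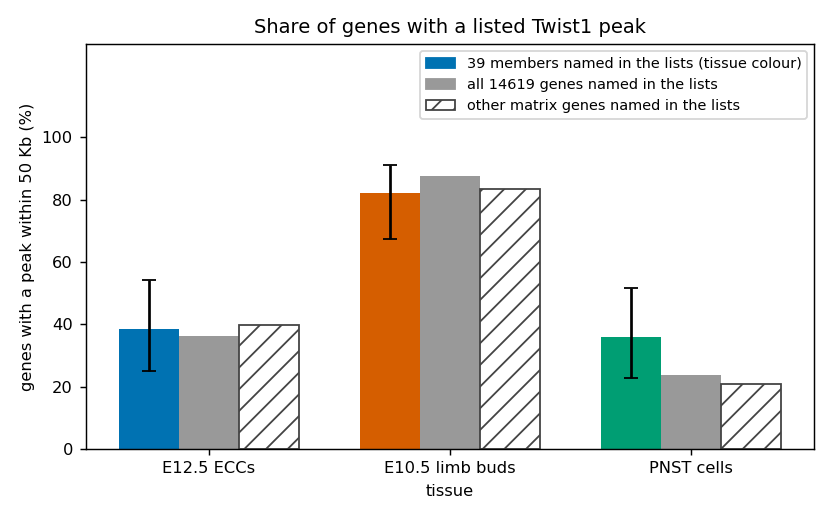
Percent of genes (vertical axis) with a Twist1 peak within 50 Kb in each tissue, for the 39 members named in the lists (coloured, with 95% Wilson intervals), all genes named in the lists (grey) and other matrix genes named in the lists (hatched). In ECCs the 3 bars lie between 36.3% and 39.6%, and in each tissue the grey bar is inside the members' interval.

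The 8 genes with a peak in every tissue were Col3a1, Col19a1, Col23a1, Col24a1, Eln, Chst11, Adamts5 and Mmp16. Peaks in ECCs and limb buds but not PNST cells were listed for 6 genes (Col4a4, Col12a1, Col25a1, Dcn, Lum and Adamts1). Peaks in limb buds and PNST cells but not ECCs were listed for 5 (Col4a3, Col5a2, Has2, Fbn2 and Tnc). No gene had peaks in ECCs and PNST cells alone. A single tissue held the peaks of 15 genes, of which 13 were found in limb buds, the longest list, Col15a1 in ECCs and Lox in PNST cells. Lox encodes lysyl oxidase, which cross-links collagen and elastin. Shares of the pairwise and single-tissue patterns over all named genes were not computed, so these counts have no background. Of all named genes, 87.5% had a limb bud peak, against 36.3% with an ECC peak and 23.6% with a PNST peak. The counts alone therefore do not set the members apart from other genes.

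Another 8 members had no peak within 50 Kb in any list. They were Col6a1 and Col6a3 of the microfibrillar collagen VI, Col22a1, Col18a1, the cushion proteoglycan Vcan (versican), Hapln1, which links versican to hyaluronan, and the proteases Adamts9 and Mmp14. Col6a3, Adamts9 and Mmp14 were the members named in no list. When peaks were instead placed in each gene and 50 Kb on either side by GENCODE vM1 coordinates, 17, 35 and 15 members had a peak (40.5%, 83.3% and 35.7%). The background over 22367 protein-coding genes was 40.1%, 84.2% and 25.0%. By these windows Col22a1, Col18a1 and Mmp14 had peaks in limb buds, and 5 members still had none. The share of all genes without a peak in any list was not computed on either basis. Peaks in all 3 tissues were placed for 10 of the 42 members, against 12.3% of protein-coding genes.

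**Figure D2:**
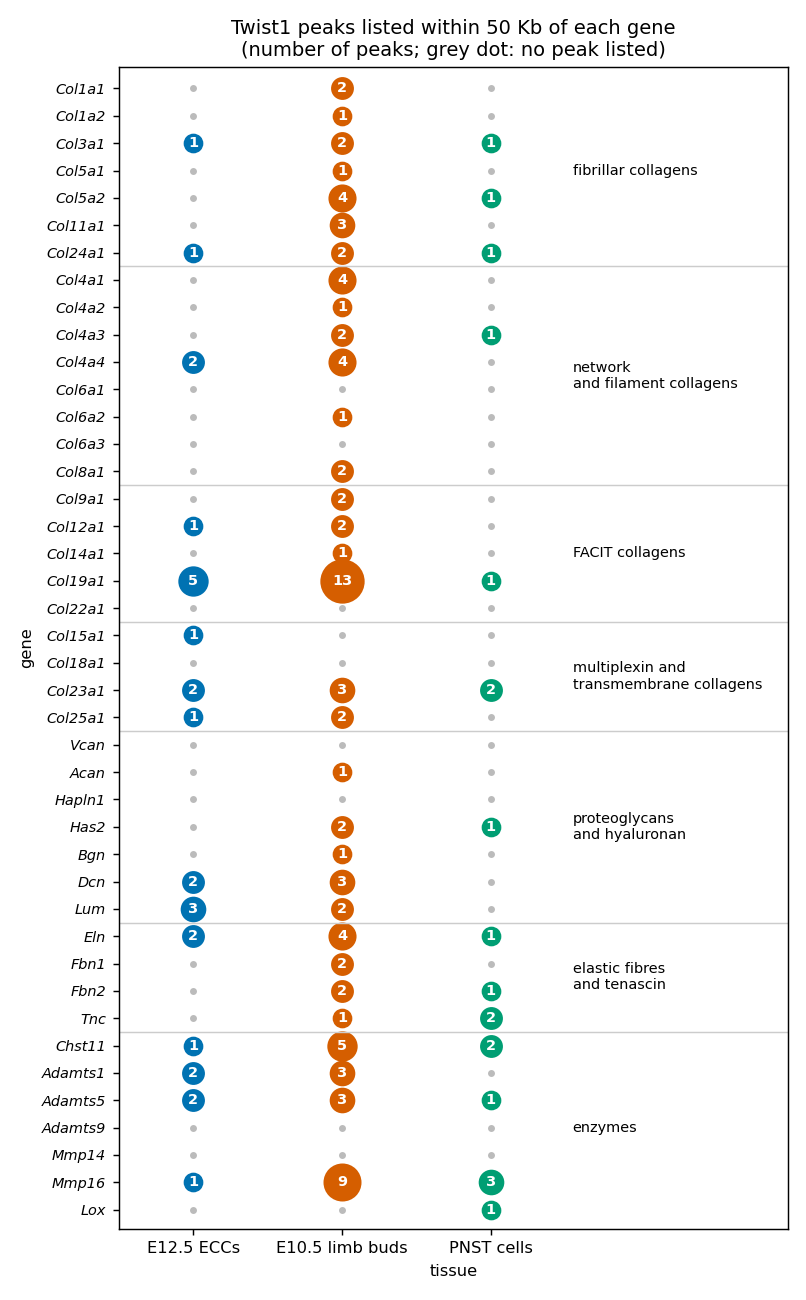
Number of listed Twist1 peaks within 50 Kb of each of the 42 genes (rows, grouped by role) in each tissue (columns). Circle area grows with the count, a grey dot marks no listed peak, and a peak listed for 2 members is drawn at both; Col19a1 (13) and Mmp16 (9) have the highest limb bud counts.

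Fibrillar collagens build the banded fibrils that carry tension in valve leaflets and limb mesenchyme. All 7 genes of this group had a limb bud peak (15 peaks), 2 had one in ECCs and 3 in PNST cells. For this and the other role groups below, the shares over all named genes are 87.5% in limb buds, 36.3% in ECCs and 23.6% in PNST cells. The groups are small, and no difference from these shares was tested. Col3a1, whose product is abundant in compliant tissue, had 1 ECC peak of 7 tags in intron 13, 2 limb bud peaks of 8 tags each upstream of the gene, and 1 PNST peak of 9 tags between it and Col5a2. None of these 4 peaks overlapped another. Col24a1, a minor fibrillar collagen, had intronic peaks of 6 tags in ECCs, 8 and 9 in limb buds and 7 in PNST cells, again at separate places. Col1a1 and Col1a2, the chains of collagen I, were listed in limb buds alone. The 2 Col1a1 peaks had 16 and 12 tags and lay beyond the 3′ end, and the Col1a2 peak had 10 tags. Col5a2, which nucleates heterotypic fibrils, had 4 limb bud peaks of 8 to 11 tags.

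Among the network and filament collagens, 6 of 8 genes had a peak in limb buds, 1 in ECCs and 1 in PNST cells. Collagen IV is the network of basement membranes, and its paired genes Col4a3 and Col4a4 are transcribed away from each other from neighbouring starts. Col4a4 held 4 limb bud peaks of 14 to 21 tags and 2 ECC peaks of 8 and 10 tags, all of them intronic. Of those limb bud peaks, 3 stood within 1 Kb of each other in intron 38, and the one with most tags contained the ECC peak of 8 tags. Col4a1 held 4 limb bud peaks of 8 to 10 tags and none in ECCs or PNST cells.

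FACIT collagens decorate fibril surfaces. A limb bud peak was listed for 4 of 5 genes, 2 had one in ECCs and 1 in PNST cells. Col19a1 led the members in ECCs with 5 peaks and in limb buds with 13, and its 1 PNST peak had the most tags of any member peak. The gene is long, at 326 Kb. Of the limb bud peaks, 10 lay in introns 2, 11, 17, 19, 27 and 30 and had 8 to 13 tags, and the other 3 lay in the flank described below. Col12a1 had 1 ECC peak of 6 tags and 2 limb bud peaks of 10 and 11 tags.

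In the multiplexin and transmembrane group, which sits in basement membrane zones and at the cell surface, 3 of 4 genes had an ECC peak, 2 a limb bud peak and 1 a PNST peak. Col23a1, a transmembrane collagen, had ECC peaks of 5 and 7 tags, limb bud peaks of 8, 9 and 9 tags, and PNST peaks of 10 and 12 tags. All 7 were intronic. Col15a1, which encodes a multiplexin of the vascular basement membrane, had its only peak in ECCs, with 5 tags.

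Of 7 genes for proteoglycans and hyaluronan synthesis, 5 had a limb bud peak, 2 had one in ECCs and 1 in PNST cells. Dcn and Lum encode decorin and lumican, leucine-rich proteoglycans that bind collagen fibrils, and are neighbours on chromosome 10. Lum had 3 ECC peaks of 5 to 6 tags, 2 of them between the genes and listed for Dcn as well. Both limb bud peaks of Lum, with 12 and 13 tags, also lay between the genes, though closer to the Lum start. Has2, the hyaluronan synthase needed for cushion formation, had a limb bud peak and a PNST peak of 8 tags each in intron 1, 173 bp apart. Bgn and Acan, for biglycan and aggrecan, had 1 limb bud peak each, with 11 and 8 tags.

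All 4 genes for elastic fibres and tenascin had a limb bud peak, 3 had one in PNST cells, and Eln alone had peaks in ECCs. Eln had 2 ECC peaks of 5 and 6 tags, 4 limb bud peaks of 9 to 14 tags and 1 PNST peak of 10 tags. Tnc, which encodes the adhesion-modulating glycoprotein tenascin C, had 1 limb bud peak of 9 tags and 2 PNST peaks of 7 and 10 tags. Fbn1 and Fbn2 encode the fibrillins of microfibrils. Fbn1 was listed in limb buds (9 and 12 tags), and Fbn2 in limb buds (8 and 11 tags) and PNST cells (7 tags).

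Of the 7 enzymes, Chst11, Adamts1, Adamts5 and Mmp16 had peaks in ECCs and limb buds, and in PNST cells Lox took the place of Adamts1. Mmp16 encodes a membrane-bound metalloproteinase that can activate gelatinase. Its 9 limb bud peaks had 9 to 21 tags, its 3 PNST peaks 7, 8 and 9 tags, and its ECC peak 5 tags. In intron 1 a limb bud peak and a PNST peak, each of 9 tags, stood 45 bp apart without overlap, with summits 12968 and 12739 bp from the start of the gene. Adamts5 had 2 ECC peaks of 6 tags each, 3 limb bud peaks of 9 to 10 tags and 1 PNST peak of 8 tags. Upstream of Adamts5 a limb bud peak and the PNST peak were 53 bp apart, and the second ECC peak lay further upstream.

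Across the 129 member peaks, height was close to the smallest each list held. In ECCs 9 of 24 peaks had 5 tags and 21 had 10 or fewer, in limb buds 25 of 87 had 8 tags and 55 had 10 or fewer, and in PNST cells 5 of 18 had 7 tags and 15 had 10 or fewer. Median tags were 6, 9 and 8.5, beside 6, 9 and 8 over all peaks within 50 Kb of a gene. Median fold enrichment, the tags at the summit over the local background of MACS, was 28.53, 15.66 and 13.66, beside 27.61, 14.53 and 15.17 over all near-gene peaks. By the medians the members thus held peaks of ordinary height. The most tags were at the Chst11 upstream region in ECCs and limb buds, and at the Col19a1 flank in PNST cells. Other peaks also stood above the medians. Among them were limb bud peaks of 21 tags in Mmp16 intron 6 and Col4a4 intron 38, and an ECC peak in Col23a1 intron 2 with a fold enrichment of 65.8.

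**Figure D3:**
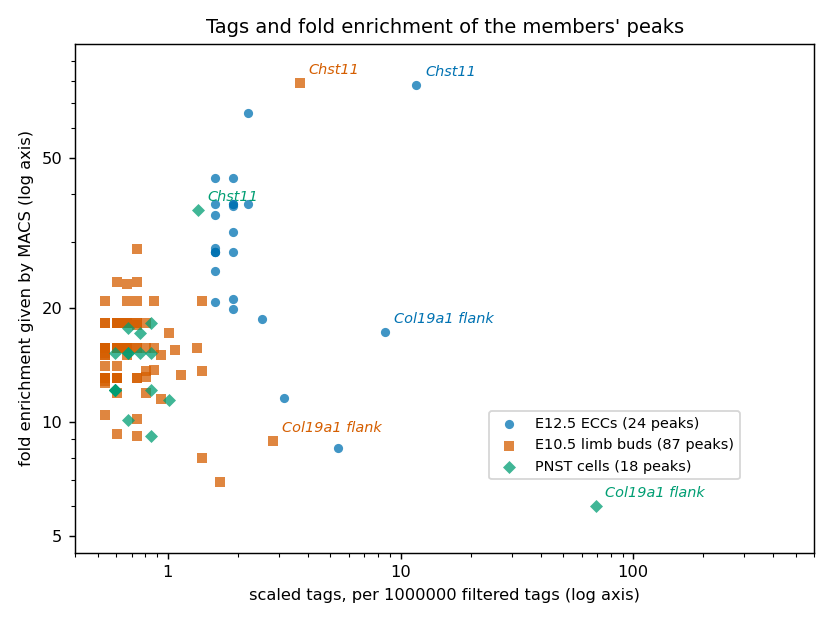
Fold enrichment given by MACS (vertical, log axis) against scaled tags, per 1000000 filtered tags (horizontal, log axis), for each of the 24 ECC, 87 limb bud and 18 PNST peaks of the members. The Chst11 upstream peaks are at the top in each tissue, and the PNST peak in the Col19a1 flank is far to the right at 68.8 scaled tags with a fold enrichment of 6.0.

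The members are long genes, with a median of 110.0 Kb against 15.4 Kb for all protein-coding genes. Per 100 Kb of gene and flank the ECC list held 0.335 member peaks, the limb bud list 1.21 and the PNST list 0.238. All protein-coding genes held 0.414, 1.72 and 0.232. Where windows overlap, a summit and the bases around it count once for each gene. Counted in this way, density among the members was lower than over all genes in ECCs and limb buds and close to it in PNST cells. Summits in the gene and 50 Kb on either side went with gene length across members. Spearman's rho was 0.31 in limb buds, 0.23 in PNST cells and 0.07 in ECCs. The counted window grows with the gene, so a positive rho is partly built in. Over all 22367 protein-coding genes rho was 0.25 in limb buds, 0.14 in PNST cells and 0.14 in ECCs, and genes are not independent replicates.

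No member peak had its summit in a coding exon or in the 1 Kb upstream of a member's start. Intronic summits numbered 12 for ECCs, 44 for limb buds and 10 for the PNST line, and intergenic summits 11, 41 and 8. The 3 remaining summits were in a promoter or untranslated exon of Gm10925, in the Col19a1 flank.

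**Figure D4:**
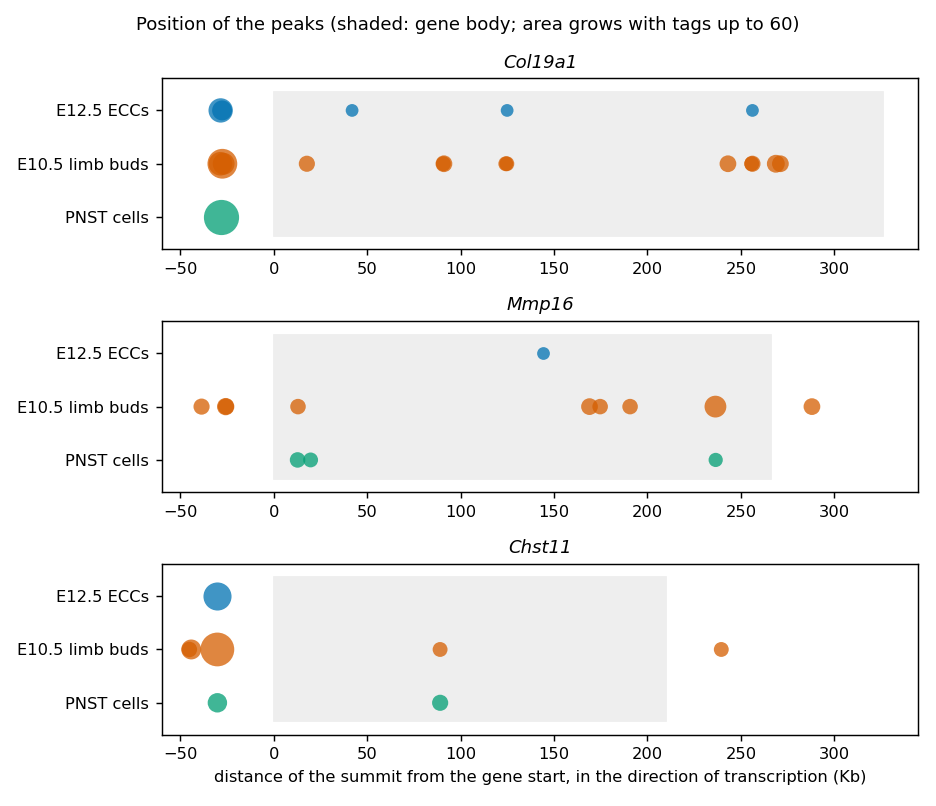
Position of peak summits in Kb from the gene start, in the direction of transcription, for Col19a1, Mmp16 and Chst11. Shading marks the gene body, each row is a tissue, and circle area grows with tags; the Chst11 upstream peaks of all 3 tissues line up before the start, as do those of the Col19a1 flank.

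Chst11 transfers sulfate to chondroitin, a modification needed in cartilage growth plates. Its upstream region spanned chr10:82417884-82418224 and lay in intergenic sequence, with a deposited distance from the ECC peak to the gene of 30358 bp. ECCs had 37 tags there, limb buds 55 and PNST cells 16. Scaled to depth, these are 11.7 (95% Poisson interval 8.27 to 16.2), 3.69 (2.78 to 4.81) and 1.35 (0.774 to 2.2) scaled tags, and the intervals do not overlap. Fold enrichment was 77.81, 78.83 and 36.41, the highest of any member peak in each tissue. Among all near-gene peaks, ranked by fold enrichment, the region stood at place 112 of 6012 for ECCs, 46 of 25975 for limb buds and 135 of 3728 for the PNST line. The summits lay within 20 bp of each other.

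Comparing tissues at the same place needs the ratio that other shared peaks show. Scaled tags of ECCs over those of limb buds had a median of 2.36 over the 1983 near-gene ECC peaks overlapped by limb bud peaks, and the value at Chst11 was 3.18, at percentile 78.9. For PNST cells over limb buds the median of 708 peaks was 0.802 and the value 0.366, at percentile 13.6. For ECCs over PNST cells the median of 383 peaks was 3.75 and the value 8.68, at percentile 96.1. In tags not scaled to length, the order of ECCs over limb buds over PNST cells at Chst11 was thus that of the medians. The gap to PNST cells was larger, and the called peak was shortest in PNST cells.

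The region held 1 E-box, CAAATG at chr10:82418180-82418185. It was inside the ECC and limb bud peaks, 124 and 126 bp from their summits, and outside the PNST peak, 106 bp from its summit. No E-box stood within 50 bp of a summit in any tissue. Unlike most member peaks the region was largely single-copy by 32-mers, with 20.3% of the 32-mers of the ECC peak, 19.5% of the limb bud peak and 41.1% of the PNST peak found elsewhere in mm9.

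The same sequence also resembled the most heavily tagged place in the lists. By blastn it matched 7 other places in mm9, the closest of them at chr17:39984298-39984613 with 93.4% identity over 316 bp. That place was inside the peak with the most tags of the whole list in ECCs (2022 tags) and in limb buds (4302 tags), and inside the peak ranked 6 by tags in PNST cells (789 tags). The interval is known as a genomic copy of the ribosomal RNA precursor. Of the member peaks, only those 3 at Chst11 matched this interval (e-value of 1e-10 or smaller), while in the whole lists 145 of 7259 placed PNST peaks, 463 of 47664 placed limb bud peaks and 100 of 10653 placed ECC peaks did. The part of this likeness in the Chst11 tags was not tested.

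Chst11 had further peaks that differed between tissues. Limb buds and PNST cells shared a peak in intron 1, with 8 and 10 tags and summits 89008 and 89037 bp from the gene start. Limb buds alone had peaks of 17 and 9 tags upstream, at deposited distances of 44270 and 45224 bp, and of 8 tags beyond the 3′ end. All 32-mers of the intron 1 peaks occurred elsewhere in the genome.

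The Col19a1 flank was the second place with peaks in all tissues, across chr1:24618347-24623028 and upstream of the gene. The PNST peak there was 4676 bp long with 813 tags, or 68.8 scaled tags (64.1 to 73.7), and a fold enrichment of 6.0, the lowest of the PNST member peaks. ECCs had peaks of 17 and 27 tags in the interval, at deposited distances of 27618 and 28479 bp, and limb buds peaks of 21, 42 and 25 tags. Summed and scaled, these are 14.0 in ECCs and 5.91 in limb buds. The called length differed, at 840 bp for ECCs and 1051 bp for limb buds against 4676 bp for the PNST line. Per Kb of called peak ECCs had 16.6 scaled tags, limb buds 5.62 and the PNST line 14.7, so that the high PNST sum went with the length of its peak.

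All 6 peaks in this flank matched the mouse mitochondrial genome. The lowest identity was 99.722%, in ECCs, and for the PNST peak 4649 bp aligned at 99.957%. Each was counted with a median of 2 copies per 32-mer in mm9. Matches to mitochondrial DNA were found for 7 of all 10653 placed peaks in ECCs, 10 of 47664 in limb buds and 17 of 7259 in PNST cells. The part of mitochondrial DNA in the tags was not tested. Without these peaks, Col19a1 kept 3 peaks in ECCs and 10 in limb buds and had none in PNST cells, and the number of members with a peak in all 3 tissues was 7 in place of 8.

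Overlap was counted when at least 5% of a peak's length was covered by a peak of the other tissue. A limb bud peak covered 11 of the 24 ECC peaks in this way, or 45.8% (27.9 to 64.9), against a background of 33.0% of near-gene peaks. PNST peaks covered 3 of them, or 12.5%, against 6.37%, and all 3 lay at places with peaks in both other tissues (background 5.44%). Among the 87 limb bud peaks, 11 were overlapped in ECCs (12.6%, background 7.84%), 7 in PNST cells (8.05%, background 2.67%) and 3 in both (3.45%, background 1.31%). Among the 18 PNST peaks, 5 were overlapped by limb bud peaks (27.8%, background 19.0%) and 2 by ECC peaks (11.1%, background 11.0%).

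Both PNST peaks overlapped in each of the other tissues were those at Chst11 and the Col19a1 flank. Background for overlap in both tissues was 9.58%. Without the peaks matching mitochondrial DNA or the chromosome 17 interval, no member region had peaks in all 3 tissues, and 3 PNST peaks were overlapped by limb bud peaks in place of 5. The members with a peak in all 3 tissues, at whatever position, then numbered 6. Member peaks overlapped in neither of the other tissues numbered 13 of 24 in ECCs (54.2%, interval 35.1 to 72.1, background 66.1%), 72 of 87 in limb buds (82.8%, 73.5 to 89.3, background 90.8%) and 13 of 18 in PNST cells (72.2%, 49.1 to 87.5, background 79.6%). The background was thus above the interval of the members in limb buds and inside it in ECCs and PNST cells. These intervals treat peaks as independent. The overlapped limb bud peaks include 3 in the Col19a1 flank, all under 1 PNST peak, and the Chst11 upstream peak. The limb bud share was not recomputed without them.

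**Figure D5:**
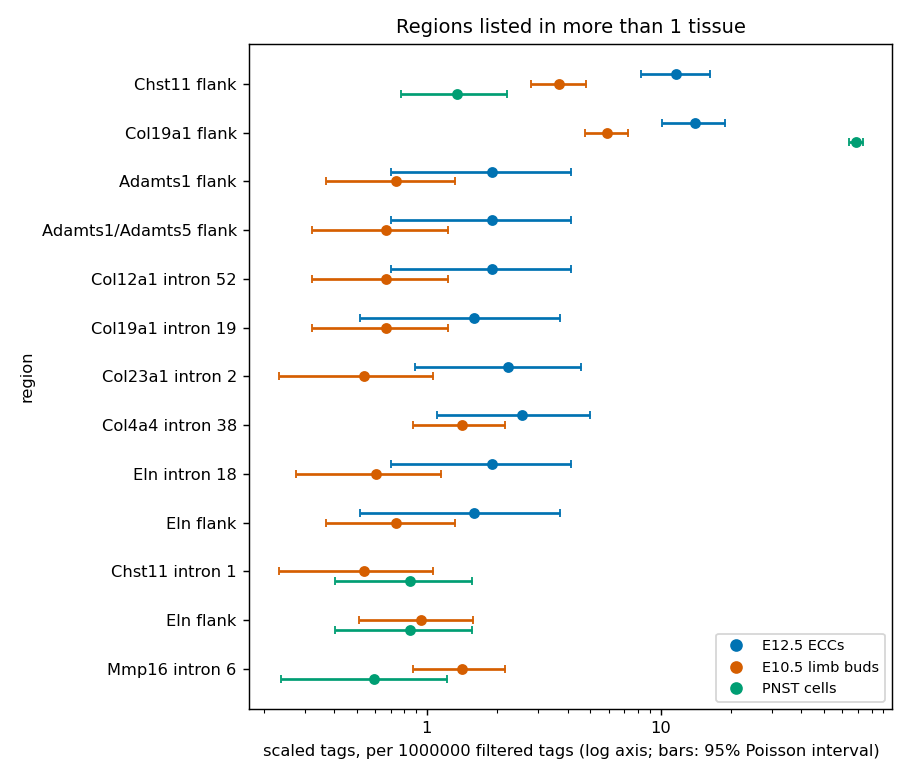
Scaled tags, per 1000000 filtered tags (horizontal, log axis), with 95% Poisson intervals at the 13 member regions with overlapping peaks in more than 1 tissue, where several peaks of 1 tissue in a region are summed over unequal called lengths. A tissue without a listed peak has no point; in the ECC and limb bud pairs below the Chst11 and Col19a1 flanks the intervals overlap.

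Where ECCs and limb buds shared a region outside the Chst11 and Col19a1 flanks, ECC tags ranged from 5 to 8 and limb bud tags from 8 to 21. Over all 11 overlapped ECC peaks the ratio of scaled tags had a median of 2.84 and a range of 1.8 to 5.11. The background median was 2.36 with quartiles of 1.72 and 3.01. At Adamts1 the shared region on the side beyond the 3′ end had 6 tags in ECCs and 11 in limb buds. Between Adamts1 and Adamts5, at a deposited distance of 6993 bp from Adamts1 in ECCs, the counts were 6 and 10. With 4 and 3 E-boxes, these Adamts regions were the only ones of the ECC and limb bud pairs with an E-box in the part common to both peaks.

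Tandem repeats of units up to 6 bp made up most of the sequence in several of these ECC and limb bud regions. The share of bases in such repeats was complete in Col23a1 intron 2, 74.1% in Col12a1 intron 52 and 67.7% in Col19a1 intron 19. The Col23a1 and Col12a1 regions aligned to each other over 146 bp at 91.8% identity. The Eln intron 18 and upstream regions aligned over 213 bp at 95.8%. Their 6 and 9 tags, and 5 and 11 tags, in ECCs and limb buds therefore came from places that resemble each other.

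Limb buds and PNST cells shared Mmp16 intron 6 with 21 and 7 tags, the 3′ flank of Eln with 14 and 10, and Chst11 intron 1 with 8 and 10. The Mmp16 and Eln regions aligned over 128 bp at 85.9% on opposite strands.

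E-boxes were present in 12 of 24 ECC member peaks (interval of the share 31.4 to 68.6%), 56.3% of limb bud peaks (45.9 to 66.3) and 55.6% of PNST peaks (33.7 to 75.4). Among all placed peaks the shares were 54.7%, 56.0% and 54.0%, each inside the interval of the members. CATATG was found in no ECC member peak (all peaks 5.9%), in 7 limb bud peaks (8.05%, all peaks 9.48%) and in 4 PNST peaks (22.2%, all peaks 4.96%). Those 4 PNST peaks were in the Col19a1 and Eln flanks, Col4a3 intron 1 and Mmp16 intron 1. The Col19a1 peak was 4676 bp long, beside a median of 162.5 bp for the PNST member peaks. The CATATG shares carry no interval and were not corrected for peak length. Per Kb of peak, E-boxes of any kind numbered 3.9 for the PNST members, Col19a1 included, against 5.45 for all placed PNST peaks. Limb bud members had 4.88 against 5.61, whereas ECC members had 5.91 against 5.67. CATCTG, or CAGATG on the other strand, was in 2 ECC, 16 limb bud and 3 PNST peaks, which is 8.33%, 18.4% and 16.7% beside 10.1%, 12.9% and 15.1% of all placed peaks.

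Repeated sequence was common. Every 32-mer of the peak occurred elsewhere in mm9 for 16 of the 24 peaks from ECCs (66.7%, all placed peaks 59.6%), 66 of the 87 from limb buds (75.9%, 73.5%) and 9 of the 18 from PNST cells (all placed peaks 66.0%). Tandem repeats covered most of the bases in 6 ECC peaks (25.0%, all peaks 6.72%), 6 limb bud peaks (6.9%, all peaks 3.59%) and 1 PNST peak (5.56%, all peaks 4.68%). Peaks in which at most 50% of the 32-mers were repeated numbered 1 in ECCs (Chst11), 3 in limb buds (Chst11, Dcn and Col25a1) and 2 in PNST cells (Chst11 and Col24a1). These are 4.17%, 3.45% and 11.1% of the member peaks, beside 5.16%, 1.38% and 3.88% of all placed peaks. The part of repeated sequence in the peaks was not tested.

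The distance limit cut through a continuous range. The outermost peaks inside it belonged to Eln, at 49.5 Kb with 5 tags in ECCs and 11 in limb buds, and in PNST cells to Col23a1 at 46.6 Kb with 10 tags. Just outside were a Col5a2 peak at 55.3 Kb with 8 tags in ECCs, a Col1a1 peak at 50.4 Kb with 10 tags in limb buds, and a second Lox peak in PNST cells at 50004 bp with 9 tags.

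A further list of 69 symbols of collagen and matrix genes outside the members was read in the same way, and 48 of them were named in the lists. Collagen XXVI was entered under both Col26a1 and Emid2, of which only Emid2 was named. ECC peaks within 50 Kb were listed for 19, limb bud peaks for 40 and PNST peaks for 10, which is 39.6%, 83.3% and 20.8% of those named, and 27.5%, 58.0% and 14.5% of all 69. A peak in all 3 tissues was listed for 6, namely Col6a6, Col10a1, Adamts20, Timp1, Plod2 and P4ha2. Plod2 and P4ha2 encode hydroxylases of collagen lysines and prolines, and Timp1 inhibits metalloproteinases. The highest counts were 4 ECC and 9 limb bud peaks for Emid2, an older symbol of the collagen XXVI gene, and 7 limb bud peaks for the basement membrane chain Col4a6.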

How the data were processed

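Twist1 ChIP-seq lists of 3 samples, 1 per tissue, were used. The authors sequenced 50 bp single reads, mapped them to mm9 (Eland and Bowtie are named in the study's methods) and called peaks in each sample by MACS 1.4.2 (band width 300, p-value threshold 1e-05). The deposited tags per peak are counts after removal of duplicates (no more than 1 tag per position) and are not normalized. The deposited significance score is 10 times the −log10 of the p-value, and the deposited fold enrichment is a ratio to local background. List headers name no control file, whereas the study's methods name FVB/N genomic DNA. The deposited limb bud list, with 48965 peaks and 14893391 filtered tags, was used as deposited. It has several times the peaks and the reads that the study's text gives for limb buds. The limb bud counts of members and peaks rest on this longer list. The PNST list also rests on more tags than the reads in the study's text. Totals before the duplicate filter were 5702220 tags (ECCs), 23086861 (limb buds) and 16760421 (PNST cells).

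Deposited distances ran from the peak start to the nearest exon or coding edge for 175 of 187 member sides (within 2 bp), and to a transcript start for 18. Locations and gene lengths came from GENCODE vM1, with promoters taken as 1 Kb upstream. Sequences were read from mm9 with pysam 0.24.0, 32-mers were counted genome-wide, and likeness was measured with blastn 2.17.0. Tandem repeats had units of 1 to 6 bp, at least 12 bp and 3 copies. Shares carry 95% Wilson intervals and tags exact Poisson intervals. No test across samples was possible. The code was tested on simulated peaks. The sequence of 1 shared region is not reported here.

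The members and gene lists were chosen with earlier results of these data known. Genes named in full were those with a peak in all 3 tissues or at a region shared by tissues, the 3 members with most peaks and the 3 strongest peaks by tags or fold enrichment per tissue, every member without a peak, and Chst11. Other members were named by role group. The alternatives, given after the report, covered thresholds, distance, overlap, list length, annotation and repeated sequence.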

Additional observations from a re-analysis of the deposited data

How the results depend on the processing

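No paired analysis was possible because each tissue has 1 sample, which also leaves no replicate to drop. The lists hold no value for a place without a peak, so absence in ECCs, the shallowest sample, cannot be told apart from low depth. Values below are given where a count moved by over 1.5 times, or a share left its interval. The cause was not tested. No share over all named genes was computed at the stricter or equal-length settings.

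At p-values of 1e-10 or smaller, 3 members had an ECC peak, 5 a limb bud peak and 2 a PNST peak, with 3, 7 and 2 peaks. Then 2 members had one in all 3 tissues, and 1 ECC peak and 2 PNST peaks were overlapped in limb buds. The limb bud E-box share was then 42.9%, against 56.3% over all 87 member peaks. Over those 87 the share within 50 bp of the summit was 35.6%, beside 39.9% of all placed limb bud peaks. At a fold enrichment of at least 20, ECCs kept 14 members and 19 peaks, limb buds 7 and 10, and PNST cells 1 and 1, so that ECCs and no longer limb buds had most. The region upstream of Chst11 was then the 1 overlap of each kind, and 1 member had peaks in all 3 tissues. Within 10 Kb, 14 peaks were left in ECCs, 41 at 20 members in limb buds and 5 at 5 members in PNST cells. Then 3 members had peaks in all 3 tissues, 6 ECC and 2 PNST peaks were overlapped in limb buds, and 0 PNST peaks in ECCs or in both. With the lists held to equal length by p-value, limb buds went from most members to fewest, with 14 peaks at 8 members beside 21 at 15 in ECCs and 18 at 14 in PNST cells, 4 members had peaks in all 3 tissues and 3 ECC peaks were overlapped in limb buds.

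A reciprocal overlap of 50% left 2 PNST peaks overlapped in limb buds and 0 in ECCs or in both, while a gap of up to 1 Kb gave 9 in limb buds. The alternatives on mitochondrial, chromosome 17 and repeated sequence and on GENCODE vM1 windows were chosen after seeing the data. Without peaks matching mitochondrial DNA, or without those matching the chromosome 17 interval, 1 PNST peak was overlapped in ECCs and in both. Without either kind it was 0, with 3 overlapped in limb buds. With at most 50% of 32-mers repeated, 1, 3 and 2 members had 1, 3 and 2 peaks, 1 member had them in all 3 tissues, and 1 peak was overlapped in each comparison. Counting only the nearer gene, any overlap, or windows by GENCODE vM1 coordinates moved no count by over 1.5 times.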

Other observations

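A primer pair designed for ChIP-PCR at Chst11 was placed on mm9 by exact match. The forward primer matched 6916 places and the reverse primer 1. The only place where both faced each other was chr10:81880396-81880606, a product of 211 bp without an E-box. It lay 537.0 Kb from the upstream region that had peaks in all 3 tissues, and 0 peaks of any list overlapped it. The genome build on which the primers were designed is not given in the sources used here, and a placement on another build was not tested.

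Limb buds and PNST cells also had 4 pairs of member peaks that lay within 1 Kb of each other without overlap. Besides those at Mmp16, Adamts5 and Has2 described above, a limb bud peak of 9 tags and a PNST peak of 10 tags in intron 2 of Col23a1 were 310 bp apart.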
